A study of Homo sapiens with 6 samples.

Results

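The genes described here are the machinery of macroautophagy and its cargo receptors, chosen by name: 39 gene symbols fixed as a list, all 39 of which were found, once each, among the 28395 genes of the deposited table. Each member carries an NCBI Gene number and an Ensembl identifier, and all 39 were matched to a gene model. The RNA came from A375 cells, an established human melanoma line (the labels give its genotype as WT), kept for 6 h in medium with 0.01% of an oil. Of the 6 libraries, 3 came from control cells given plain olive oil (OLO) and 3 from cells given ozonated olive oil (OZO), which is olive oil treated with ozone. The labels do not say whether the 3 libraries of a group came from separate cultures. The paper describes its transcriptome values for A375 as the mean of 3 independent experiments. The table gives each gene 1 level, the authors' mean log2 CPM (counts scaled to a common library size) over all 6 libraries of both treatments. It gives the difference between OZO and OLO only as the authors' own comparison, which is not used here. The levels below therefore pool both treatments, with no value per library, no standard deviation and no test between treatments. For a gene whose level differs between the oils, the pooled mean is the level under neither. All levels are of mRNA, and amounts of protein were not examined here.

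Macroautophagy encloses part of the cytoplasm in a double membrane, the autophagosome, which then fuses with the lysosome. The ULK kinase complex starts the process, a PI3-kinase complex marks the growing membrane with a phosphoinositide, and ATG2, ATG9 and VMP1 bring lipid to it. A ubiquitin-like conjugation system attaches the ATG8 proteins (the LC3 and GABARAP families) to the membrane, and cargo receptors bind ubiquitinated or damaged material on one side and ATG8 on the other. TFEB and TFE3 are related transcription factors that activate many lysosomal and autophagy genes.

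The low values of the table show the depth. A gene with no read in any library holds the lowest value, and the spacing of the values above it gives 18409903 counted fragments as the geometric mean of the 6 library sizes. On this scale the median member had 893 reads per library. A read number is given throughout as a geometric mean over the 6 libraries. If reads are pooled over the libraries, the counting error of a level was 1.37% for the median member, from 0.272% for SQSTM1 to 19.7% for TFEB. These errors cover counting only, and the spread between libraries is unknown here.

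As a check of the label, SOX10, a transcription factor of the melanocyte lineage, had 919 reads and MITF, the main regulator of melanocyte genes, 499 reads. The pigment cell genes were low, with 36.6 reads for MLANA, 11.0 for TYRP1, 5.75 for PMEL and 4.74 for DCT. TYR, which encodes tyrosinase, had no read, which allows a level of up to 0.0272 CPM if 3 reads over the 6 libraries are taken as the limit. S100B had 51.0 reads, so 5 of the 8 melanocyte lineage markers reached a mean of 10 reads. Of 5 markers of other cell types, KRT14 of keratinocytes had 77.5 reads, COL1A1 of fibroblasts 22.3 and PECAM1 of endothelium 19.5, while KRT5 had 1.56 and PTPRC of leukocytes 1.07. The part of other cells in these levels was not tested.

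All 39 autophagy genes had reads, and 38 of them (97.4%) reached a mean of 10 reads per library, beside 48.5% of all genes and 64.8% of the 19178 protein-coding genes in the table. TFEB was the exception. The members were chosen with earlier results of these data known. Their share is therefore not that of an unselected set of autophagy genes. The members had a median level of 5.60 log2 CPM with quartiles at 4.71 and 6.65. The 13773 genes with at least 10 reads had a median of 4.47 with quartiles at 2.26 and 6.12, and 32 of the 39 members lay above that median. Together the members made up 0.39% of the summed CPM of all genes. A single gene, SQSTM1, held 31.9% of the members' own sum of 3850 CPM.

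**Figure D1:**
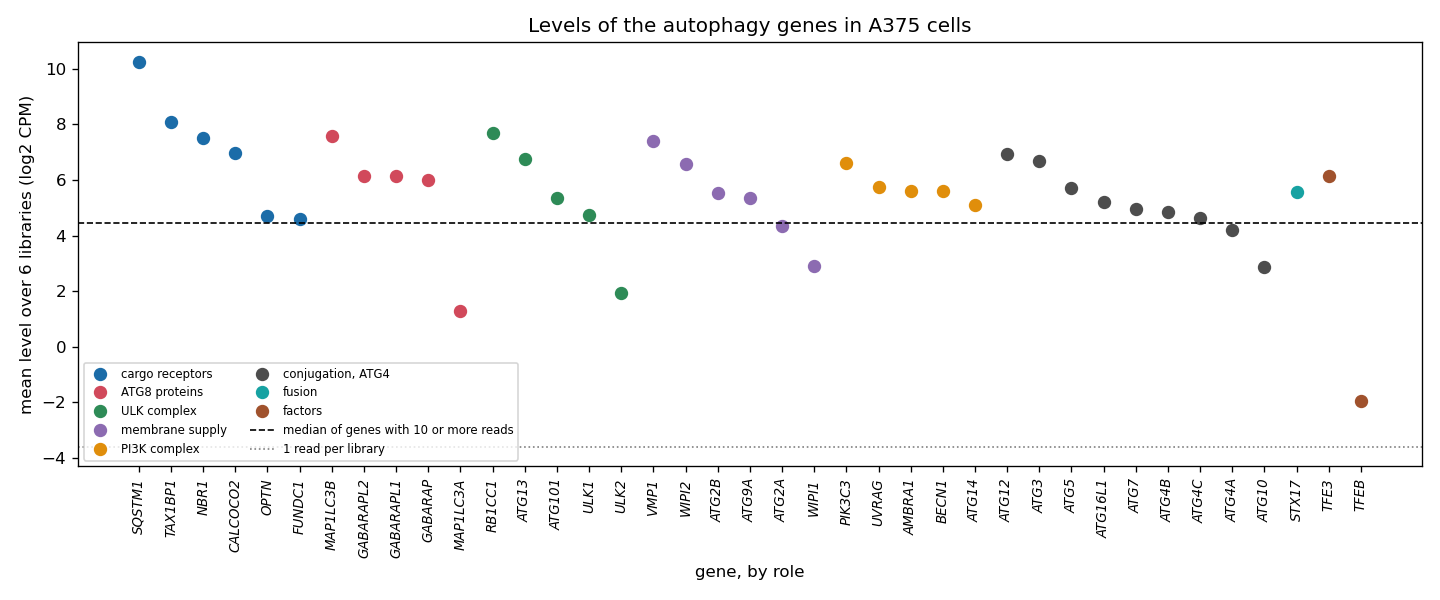
Mean level of each of the 39 autophagy genes over all 6 libraries (vertical axis, log2 CPM), 1 point a gene, coloured and grouped by role along the horizontal axis. The dashed line is the median of genes with at least 10 reads (4.47) and the dotted line the level of 1 read per library (−3.62). SQSTM1 stands highest at 10.26 and TFEB lowest at −1.94.

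Levels of different genes were compared per length, as CPM per kilobase of all annotated exons of the gene, because a longer transcript gives more fragments. On that scale the members had a median of 7.97 CPM per kb, against 4.47 for genes with at least 10 reads and 4.85 for the protein-coding ones among them. Of the 39 members, 29 lay above the median of all genes with at least 10 reads and 10 lay below it. SQSTM1, MAP1LC3B and GABARAP were higher than at least 90% of those genes. As the exon set counted by the authors is not stated, the length was also taken from the MANE Select transcript, the 1 representative transcript that RefSeq and Ensembl share. The exon union was longer than that transcript by a median factor of 1.66, from 1.06 to 3.90, so the second scale gives higher values for every member. The median of the protein-coding genes with at least 10 reads rose too, from 4.85 to 7.89 CPM per kb. The members above it numbered 29 on the first scale and 27 on the second.

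**Figure D2:**
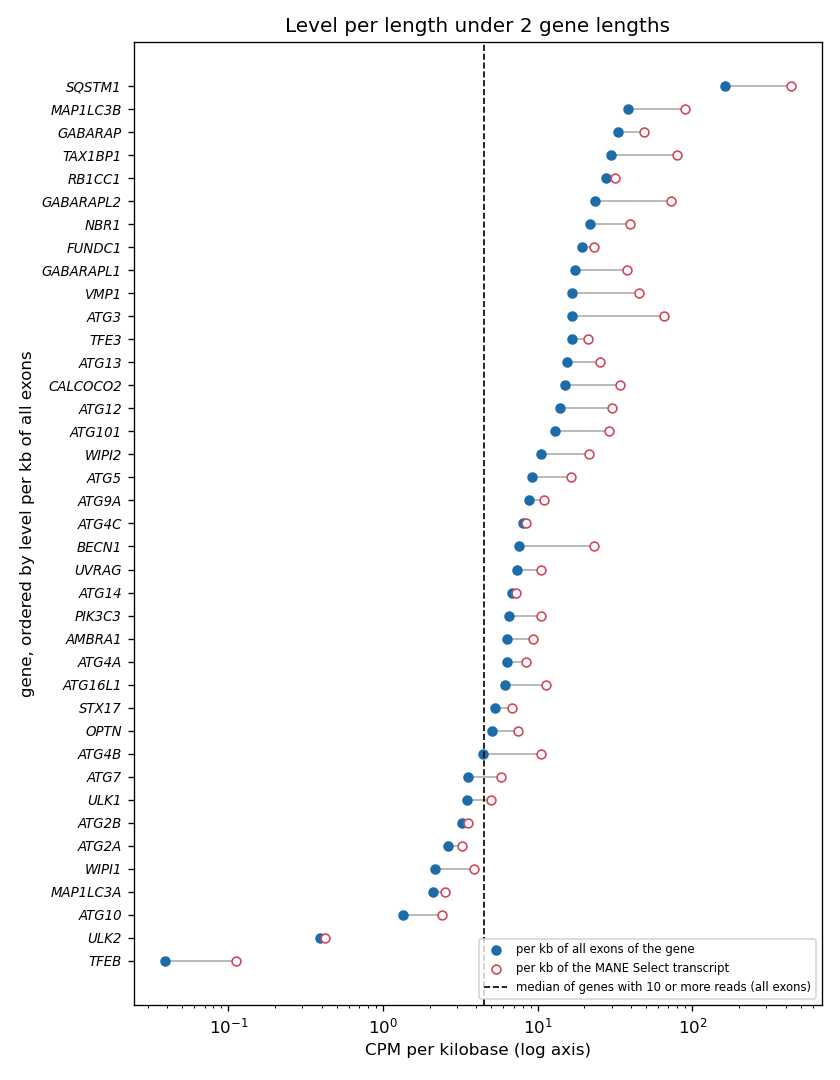
Level of each member per kilobase (horizontal log axis, CPM per kb), with filled points for the length of all exons and open points for the MANE Select transcript, joined by a line. The dashed line is the median of genes with at least 10 reads for the length of all exons, 4.47 CPM per kb. It applies to the filled points only. With the MANE Select length the median of the protein-coding ones was 7.89, which is not drawn. SQSTM1, ULK2 and TFEB keep the first and the 2 last places under both lengths, and 8 genes in between move by more than 5 places.

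The cargo receptors had the largest sum of levels, 254 CPM per kb, and the sum rested on SQSTM1, without which it was 90.8. All 6 lay above the median of genes with at least 10 reads per length of all exons, and together they made up 48.2% of the members' summed CPM. With the MANE Select length OPTN, at 7.44 CPM per kb, lay below the median of the protein-coding genes among them, 7.89. SQSTM1 (chromosome 5, 179806393 to 179838078) encodes p62, which gathers ubiquitinated proteins into bodies for autophagy and also binds KEAP1, the inhibitor of the factor NRF2. SQSTM1 had a level of 10.26 log2 CPM, or 22579 reads, and 163 CPM per kb. This pooled level was 36.4 times the median gene and 4.25 times the next member per length, and only 154 of the genes with at least 10 reads stood higher per length. By CPM without length, 55 stood higher. Its rank and its share hold for the 6 libraries together, and its level under each oil is not given here. An overlap limits the reading of this level: 22.4% of the SQSTM1 exon bases lie opposite exons of other genes, MGAT4B and MRNIP being the genes that overlap it there, and the use of strand in the counting is not stated. The same holds for more than 10% of the exon bases of 6 other members, WIPI1 (28.1%), ATG14 (20.8%), ATG101 (19.2%), ATG7 (18.1%), BECN1 (17.1%) and GABARAP (12.8%).

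TAX1BP1 and NBR1 bind ubiquitin and ATG8 much as p62 does, and both were abundant. TAX1BP1 (chromosome 7, 27739373 to 27829767) had 8.10 log2 CPM and 29.8 CPM per kb, and NBR1 (chromosome 17, 43170409 to 43211688) had 7.51 log2 CPM and 21.7 CPM per kb. CALCOCO2, which encodes the bacterial and mitochondrial receptor NDP52, had 6.96 log2 CPM and 14.9 CPM per kb. FUNDC1, a receptor in the outer mitochondrial membrane, had only 4.60 log2 CPM, but its exons total 1257 bases and its level per length was 19.3 CPM per kb. It was ranked 32 of the members without length, 8 per length of all exons and 15 with the MANE Select length. On that last scale FUNDC1 was below CALCOCO2, at 23.0 against 34.1 CPM per kb. OPTN, a ubiquitin receptor of damaged mitochondria, was the lowest of the group per length at 5.04 CPM per kb and 4.69 log2 CPM. Per length of all exons the receptors thus spanned from just above the median gene to the top of the whole list.

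The ATG8 genes had the highest median level per length of any role, 23.6 CPM per kb against 20.5 for the cargo receptors, and a sum of 114 CPM per kb. Without length the cargo receptors had the higher median, 7.23 log2 CPM against 6.14 for the ATG8 genes. MAP1LC3B (chromosome 16, 87392336 to 87404774) encodes LC3B, the usual marker of autophagosomes, and had 7.59 log2 CPM, 3549 reads and 38.3 CPM per kb, second among all 39. Its close relative MAP1LC3A (chromosome 20, 34546844 to 34560345), which encodes LC3A, had 1.27 log2 CPM and 43.9 reads. MAP1LC3B was 18.3 times MAP1LC3A per length (counting interval of 95%, 16.2 to 20.7), and 35.9 times with the MANE Select length. GABARAPL2 and GABARAPL1 had 1307 and 1302 reads, a gap smaller than their counting errors of 1.13% each. GABARAP had 1185 reads and, with the shorter gene, 33.0 CPM per kb.

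The make-up of the ATG8 pool was as follows. Of the summed ATG8 level per length, MAP1LC3B held 33.5%, GABARAP 28.8%, GABARAPL2 20.6%, GABARAPL1 15.3% and MAP1LC3A 1.83%. With the MANE Select length the order of GABARAP and GABARAPL2 changed, to 19.4% and 29.0%, while MAP1LC3B stayed highest at 35.7% and MAP1LC3A lowest at 0.99%. A further limit may hold for GABARAP, of which 35.4% of the exon bases also belong to another GENCODE gene on the same strand. Whether the authors' counting included that other gene is not stated. MAP1LC3B has a near-identical copy, MAP1LC3B2, with 46.9 reads, or 1.32% of those of MAP1LC3B, and reads could be split between the copies. GABARAPL3, a copy of GABARAPL1, had 0.44 reads, and MAP1LC3C, a further LC3 gene, had 5.73.

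**Figure D3:**
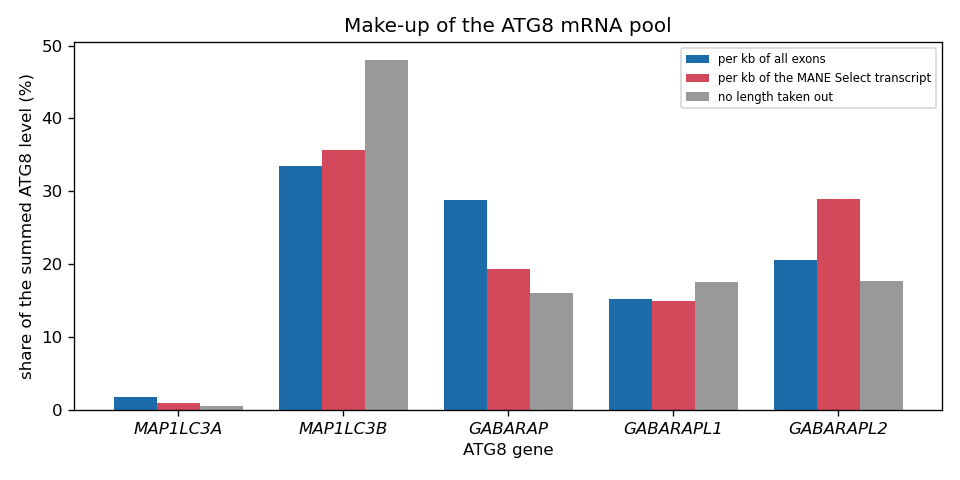
Share of each of the 5 ATG8 genes in their summed level (vertical axis, percent), for 3 scales: per kb of all exons, per kb of the MANE Select transcript, and CPM with no length taken out. MAP1LC3B is highest on all 3 scales, at 33.5%, 35.7% and 48.0%, and MAP1LC3A stays under 2%.

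Among the genes of the ULK complex, the mRNA of the scaffold was far more abundant than that of the kinases. RB1CC1, which encodes the scaffold FIP200, had 7.71 log2 CPM and 27.4 CPM per kb. ATG13 and ATG101, which bind each other and tie the kinase to the complex, had 6.75 and 5.36 log2 CPM, and 15.4 and 12.9 CPM per kb. ULK1 (chromosome 12, 131894622 to 131923150), the main kinase, had 4.72 log2 CPM and 3.47 CPM per kb, below the median gene. ULK2 (chromosome 17, 19770830 to 19867936) was lower again, with 70.6 reads and 0.39 CPM per kb. ULK1 was 8.85 times ULK2 per length (counting interval 7.995 to 9.80), and 11.8 times with the MANE Select length. ULK3, a more distant kinase, had 406 reads and 6.28 CPM per kb.

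The 5 genes of the PI3-kinase complexes lay close together. PIK3C3 encodes the lipid kinase VPS34, BECN1 the scaffold Beclin 1, ATG14 and UVRAG the alternative subunits of the autophagy and endosome complexes, and AMBRA1 a regulator that binds Beclin 1. Per length they ran from 6.36 CPM per kb for AMBRA1 to 7.56 for BECN1, a 1.19-fold range, with ATG14 at 6.76, PIK3C3 at 6.53 and UVRAG at 7.31. This narrow range depended on the length: with the MANE Select transcript it was 3.19-fold, from 7.21 for ATG14 to 23.0 for BECN1. Without length, PIK3C3 stood highest at 6.63 log2 CPM and ATG14 lowest at 5.09. PIK3R4, which encodes VPS15, the regulatory partner of VPS34, had 24.6 CPM per kb of all exons. With the MANE Select length it had 26.4, beside 23.0 for BECN1.

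Among the genes that supply membrane, VMP1, a lipid scramblase of the endoplasmic reticulum, was highest with 7.39 log2 CPM and 16.7 CPM per kb. The microRNA gene MIR21 lies within the annotated VMP1 locus on the same strand. ATG9A, the scramblase of the ATG9 vesicles, had 8.75 CPM per kb, and its paralog ATG9B had 1.27 reads. Another GENCODE gene on the same strand shares 38.8% of the ATG9A exon bases, and whether the authors' counting included it is not stated. The lipid transfer genes ATG2B and ATG2A had 3.26 and 2.63 CPM per kb, both below the median gene. ATG2B was 1.24 times ATG2A per length (counting interval 1.18 to 1.30) and 1.08 times with the MANE Select length. WIPI2, the phosphoinositide reader that recruits ATG16L1, had 10.5 CPM per kb and was 4.84 times WIPI1 (counting interval 4.51 to 5.20). WIPI1 itself had 136 reads. The related WDR45B and WDR45 had 27.5 and 5.01 CPM per kb.

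The conjugation system was uneven. ATG12, the ubiquitin-like protein that is joined to ATG5, had 6.94 log2 CPM and 13.8 CPM per kb. ATG3, the E2-like enzyme that passes ATG8 to lipid, had 6.68 log2 CPM and 16.7 CPM per kb. ATG5 and ATG16L1, the partners of ATG12 in the E3-like complex, had 9.20 and 6.16 CPM per kb. ATG7 (chromosome 3, 11272397 to 11576353), the E1-like enzyme that activates both ubiquitin-like proteins, had 3.51 CPM per kb. ATG10, the E2-like enzyme of ATG12, was the lowest of the group with 133 reads and 1.34 CPM per kb. By this measure the mRNA of ATG3 was abundant and that of ATG10, the other E2-like enzyme, was not.

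ATG4 proteases trim ATG8 before it is joined to lipid and release it afterwards. Without length, ATG4B had 537 reads, ATG4C 457 and ATG4A 340. Per length the order was the reverse for ATG4B, with 7.97 CPM per kb for ATG4C, 6.32 for ATG4A and 4.40 for ATG4B. With the MANE Select length ATG4B came first again, at 10.4 CPM per kb against 8.44 for ATG4C and 8.38 for ATG4A, so no order of the 3 proteases can be given. ATG4D, the fourth of the family, had 286 reads and 6.83 CPM per kb. STX17, the SNARE that fuses the autophagosome with the lysosome, had 5.55 log2 CPM and 5.26 CPM per kb.

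The transcription factors were the most unequal pair. TFE3 (chromosome X, 49028726 to 49043357) had 6.13 log2 CPM, 1286 reads and 16.6 CPM per kb. TFEB (chromosome 6, 41683978 to 41736223) had −1.94 log2 CPM, 4.30 reads and 0.039 CPM per kb, below 99.9% of the genes with at least 10 reads. As TFEB did not reach that minimum itself, a place near the bottom of that set was largely fixed by the filter. TFE3 was 429 times TFEB per length (counting interval 291 to 631), and 190 times with the MANE Select length. Of the other genes of the family, MITF had 3.65 CPM per kb and TFEC 4.75 reads. TFE3 was 4.55 times MITF per length and 3.76 times with the MANE Select length.

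**Figure D4:**
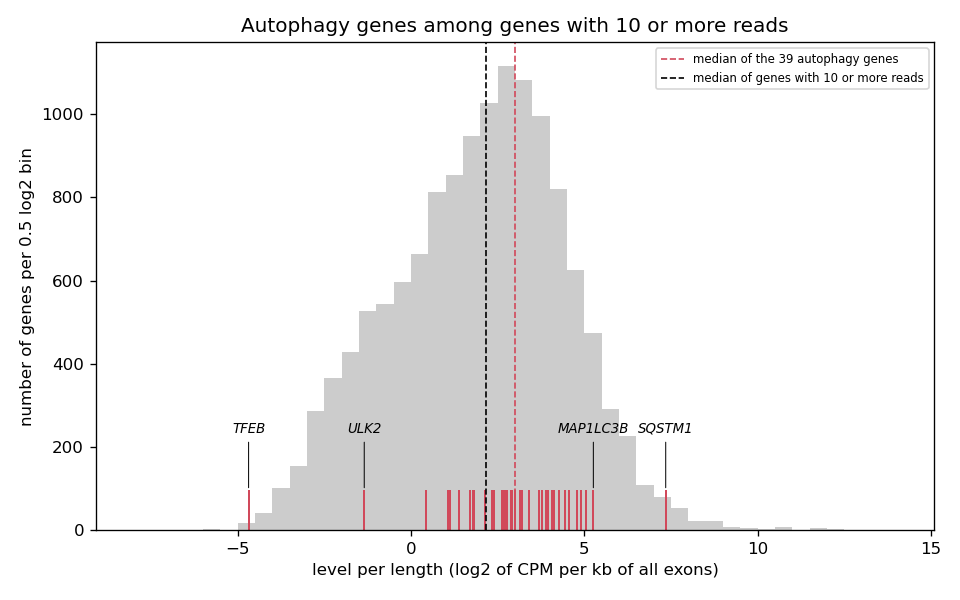
Distribution of the level per length (horizontal axis, log2 of CPM per kb of all exons) over genes with at least 10 reads (grey bars, number of genes per bin of 0.5). Red ticks mark the 39 autophagy genes, and dashed lines the median of these genes (7.97 CPM per kb) and of all genes with at least 10 reads (4.47 CPM per kb). SQSTM1 lies in the upper tail. TFEB lies below nearly all genes with at least 10 reads, a minimum that TFEB itself did not reach.

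A list of 37 other genes of autophagy was set beside the members. All 37 were found and had reads, and 33 reached a mean of 10 reads, with a median of 6.28 CPM per kb. The 3 highest were PHB2, a mitophagy receptor of the inner mitochondrial membrane, at 59.9 CPM per kb, NCOA4, the receptor that delivers ferritin to autophagosomes, at 57.1, and BNIP3, a mitophagy receptor known as a hypoxia target, at 47.1. Only SQSTM1 among the 39 members was higher than these 3 per length of all exons. With the MANE Select length MAP1LC3B (89.8), TAX1BP1 (79.9) and GABARAPL2 (72.9) also exceeded NCOA4 (65.8), but not PHB2 (183) or BNIP3 (124). Of the 11 genes of this list that are paralogs of a member, 7 reached 10 reads. ATG9B and BECN2, the latter with 0.37 reads, were under 3 reads. ATG16L2, the paralog of ATG16L1, had 41.2 reads and 0.27 CPM per kb.

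Because TFE3 was abundant and TFEB the lowest member, the members' promoters were searched for the letters both factors bind. The windows, from RefSeq (GRCh38.p14), hold 250 bases before and 50 after 1 annotated start of each gene and were found for 35 of the 39 members, all but MAP1LC3A, RB1CC1, STX17 and UVRAG. The E-box core CACGTG, the same on both strands, was in 2 of the 35 windows (5.71%), those of ATG3 and ATG14, and in 8.51% of the windows of all 18304 genes searched. The longer form TCACGTGA, which contains the core, was in 1 window (2.86%), that of ATG3, and in 1.29% of all. An antioxidant response element, the site of NRF2, searched on both strands as TGACNNNGC, was in 3 windows (8.57%), those of MAP1LC3B, CALCOCO2 and ATG101, and in 14.4% of all. For 32 of the 35 genes that start lay within 1000 bases of the start of the MANE Select transcript. For SQSTM1, ATG5 and AMBRA1 it did not: the SQSTM1 window lies 14512 bases upstream of that start, so the search did not cover it. The ATG101 window is at its MANE Select start, 4678 bases downstream of the first base of the gene. A match is a description of the sequence only.

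The ATG3 window is shown because it holds the core at bases −18 and 6 from the start, the second within the longer form, and the ATG14 window because it holds the core at base −21. The MAP1LC3B window is shown for the antioxidant response element at base −46 in the member that was second highest per length. Capitals mark the matched letters, and each sequence reads 5′ to 3′ on the strand of its gene. The ATG3 window is chr3:112561913-112562212 (minus strand), that of ATG14 chr14:55411781-55412080 (minus strand) and that of MAP1LC3B chr16:87392086-87392385 (plus strand).
ATG3: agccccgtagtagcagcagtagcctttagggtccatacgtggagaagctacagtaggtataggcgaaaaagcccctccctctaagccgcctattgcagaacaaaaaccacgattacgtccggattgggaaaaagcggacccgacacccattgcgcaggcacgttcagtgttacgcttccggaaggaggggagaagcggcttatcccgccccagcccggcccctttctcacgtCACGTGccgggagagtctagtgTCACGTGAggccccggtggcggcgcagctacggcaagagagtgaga
ATG14: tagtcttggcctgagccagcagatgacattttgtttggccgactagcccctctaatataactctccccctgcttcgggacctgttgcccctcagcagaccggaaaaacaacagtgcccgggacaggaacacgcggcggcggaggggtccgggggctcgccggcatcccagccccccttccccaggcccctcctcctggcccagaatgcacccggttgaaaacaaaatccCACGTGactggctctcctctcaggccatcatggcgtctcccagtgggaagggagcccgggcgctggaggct
MAP1LC3B: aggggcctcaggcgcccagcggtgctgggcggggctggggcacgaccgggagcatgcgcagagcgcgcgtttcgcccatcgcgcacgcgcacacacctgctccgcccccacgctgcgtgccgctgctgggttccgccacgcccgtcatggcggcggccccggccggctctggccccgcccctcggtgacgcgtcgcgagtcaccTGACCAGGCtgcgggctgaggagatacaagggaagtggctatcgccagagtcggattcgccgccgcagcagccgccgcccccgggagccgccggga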

How the data were processed

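Total RNA of A375 cells (3 OLO and 3 OZO libraries) was made into strand-specific libraries. Per the labels and the methods, the authors aligned reads to hg38 with HISAT2 2.1.0, counted them per gene with featureCounts 2.1.1 and used limma-voom 3.58.1. The annotation, the scaling and the strand setting are not given in the sources used here. No filter is named, and the table keeps 7012 genes with no read, so genes were not removed for low counts. Of its 28395 genes, only 25525 carry an Ensembl identifier. The exons counted may therefore differ from the GENCODE exons used here for length, which limits every level per length of all exons. The deposited log2 value used is the authors' mean log2 CPM over all 6 libraries, with 0.5 added to each count by voom. The 5 other numeric columns (fold change, moderated t, p-value, adjusted p-value and log odds) are the authors' own comparison of treated with control cells and were not used. No values per library were analysed here, so no test was run.

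Reads per library were derived from the lowest value, which stands for no read. Raised to the power of 6, the ratio of a low value to it must be an odd whole number, which held within 0.001 for 100% of the 10948 lowest genes. Levels per length used exons of GENCODE 44, matched by Ensembl identifier for 25497 genes, and RefSeq coordinates (GRCh38.p14, the same assembly), with pandas 2.3.3 in Python 3.11.15. A counting error is that of the reads pooled over 6 libraries. Reference genes have a mean of at least 10 reads, and 13313 of the 13773 have a length. Members, lists and roles were chosen with earlier results of these data known. All members are named, with those of the 37 other genes that are paralogs of a member or the 3 highest per length. PIK3R4 was added after its value was seen.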

Additional observations from a re-analysis of the deposited data

How the results depend on the processing

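No paired analysis was possible because the table holds no values per library. For the same reason edgeR, DESeq2, other filters and scalings, and leaving out each replicate were not run, and how far a single library sets a level is unknown. The number of members with at least 10 reads, 38, was 39 at a minimum of 1 read and 36 at 100, and the median level was 5.60 log2 CPM with an offset of 1 read as well. The median percentile of the members, 66.9 among genes with at least 10 reads, became 78.7 among all genes with any read, 63.5 among protein-coding genes and 63.6 per length. It became 62.2 per length and 58.6 per length of the MANE Select transcript among protein-coding genes, both chosen after the data were seen.

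Length moved most other values. Of the 10 highest members per length, 8 were shared by both lengths; FUNDC1 and RB1CC1 gave way to ATG3 and CALCOCO2. With the MANE Select length the ATG8 shares were 35.7% for MAP1LC3B, 29.0% for GABARAPL2, 19.4% for GABARAP and 0.99% for MAP1LC3A, and with no length 48.0%, 17.7%, 16.0% and 0.60%, with 17.6% for GABARAPL1. The MANE Select length turned the ratio of ATG4B to ATG4A from 0.70 to 1.24 and of ATG4B to ATG4C from 0.55 to 1.24, and moved ATG4A over ATG4C from 0.79 to 0.99. It moved ULK1 over ULK2 to 11.8, ATG2B over ATG2A to 1.08, WIPI2 over WIPI1 to 5.49, TFE3 over TFEB to 190 and MAP1LC3B over MAP1LC3A to 35.9. These changes follow from the lengths alone.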
